A study of Danio rerio with 3 samples.

Results

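The cells described here are fibroblast-like barcodes with transcripts of *tnn*, *abi3bpb* and *matn4* from the lesioned trunk of larval zebrafish. They were chosen by measured transcripts: a barcode had to hold at least 1 unique molecular identifier (UMI, a tag that marks 1 captured RNA molecule) of at least 4 of 8 genes, *abi3bpb*, *tnn*, *matn4*, *dchs1a*, *ca6*, *TNC*, *fstb* and *crabp1b*, and a UMI of fewer than 3 of the 4 genes *sost*, *tmem88b*, *pcolcea* and *c6*. In all, 4857 of 40973 barcodes that passed the filters (at least 200 genes, 500 to 50000 UMIs and under 20% mitochondrial UMIs) met this rule, and these 4857 barcodes are called members below. The gControl library gave 1860 members of 13842 barcodes, gSema4abR1 gave 1490 of 13655 and gSema4abR2 gave 1507 of 13476. Levels are given as CPM, the UMIs of a gene summed over members, divided by all UMIs of those members and scaled to a common total. Unless another order is named, 3 values in a row belong to gControl, gSema4abR1 and gSema4abR2.

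Fibroblast-like cells build the extracellular matrix around the notochord, the muscle segments, the tendons and the fin fold of the zebrafish larva. After a spinal lesion in larvae, such cells enter the injury site and deposit matrix, including collagen XII, along which axons grow across. Tenascins, encoded by *tnn*, *tnc* and *TNC*, are large matrix glycoproteins that modulate how cells attach to fibronectin and collagen, and matrilins such as *matn4* link collagen fibrils and proteoglycans into networks.

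The study asked how Sema4ab, a transmembrane semaphorin made by immune cells at the lesion, acts on other cells during spinal cord regeneration. Larvae were injected at the zygote stage with a highly active synthetic CRISPR guide RNA (haCR) that was either a control (gControl) or directed to *sema4ab* (gSema4ab), their spinal cord was transected at 3 dpf, and the trunk around the lesion was taken at 4 dpf, 24 h after the lesion. Both conditions thus share the haCR injection, the lesion and the age, and larvae injected with a haCR are mosaic for the alleles it makes. Each library pooled 50 larvae, and propidium iodide-negative viable cells were sorted before droplet capture. gControl is 1 library, and gSema4abR1 and gSema4abR2 are 2 technical repeats of 1 gSema4ab sample, so nothing below could be tested between conditions. Intervals are exact 95% intervals that cover the counting error of UMIs or cells only, and a gene is called past 2-fold where its log2 ratio reached 1, or −1, in each repeat.

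The libraries held 139165621 to 152455137 UMIs. The median depth of members was 8624.5, 8547 and 8868 UMIs, against 7580.5, 6829 and 6878.5 over all barcodes that passed. Pairs of libraries shared 46 to 67 barcode sequences, of which 0 to 3 were members in both. No doublet caller was run, and 613, 525 and 508 members (33.0%, 35.2% and 33.7%) also carried transcripts of another cell type: a UMI of *elavl3* or *elavl4* (neurons), of at least 2 of *krt4*, *krt5*, *krt91* and *icn2* (epidermis), of at least 2 of *lcp1*, *mfap4*, *mpeg1.1* and *lyz* (immune cells), or globin transcripts above 5% of UMIs. Epidermal transcripts were the most frequent of these, in 369, 357 and 359 members. Members without such transcripts are called unmixed, and their values are given beside results that involve those genes. As a measure of free RNA, shares of members with a UMI are set against red blood cell barcodes (over 50% globin UMIs), whose median depth was 3944, 4488 and 5434 UMIs.

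The cut of the rule lay on a continuous slope. There were 3252 barcodes with 3 of the 8 genes, just outside the rule, then 2223 members with 4, 1123 with 5, 617 with 6, 603 with 7 and 291 with 8 genes. Their median depth was 8487 UMIs just outside the cut, 8522 with 4 genes and 8920 with 8 genes, so the number of genes detected was not accompanied by a large change in depth. Members made up 13.4% (12.9 to 14.0%) of the gControl barcodes, 10.9% (10.4 to 11.4%) of those of gSema4abR1 and 11.2% (10.7 to 11.7%) of those of gSema4abR2. Of the 12181, 11782 and 11444 barcodes deep enough to be thinned to 2000 UMIs, 7.1%, 5.34% and 5.73% met the rule after thinning. Shallower barcodes were left out of these shares. Several genes of the rule were themselves lower in gSema4ab than in gControl members, and the sort kept viable cells only, so these shares are an account of the members and no comparison between conditions is read from them.

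**Figure D1:**
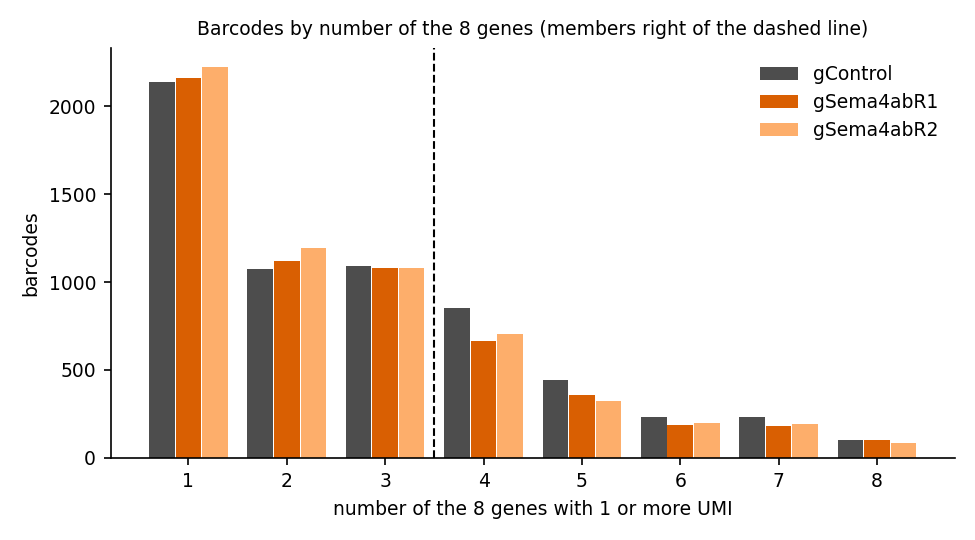
Number of barcodes (y axis) with a UMI of 1 to 8 of the 8 genes of the rule (x axis), for gControl, gSema4abR1 and gSema4abR2, among barcodes with fewer than 3 of the 4 excluding genes. Barcodes with 1 to 3 genes lie outside the rule. Over the 3 libraries the numbers fall from 6519 at 1 gene to 3252 at 3 and 291 at 8 genes, with no gap at the cut.

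The values of the rule's own genes describe what was chosen. *tnn*, which encodes tenascin N (tenascin W), was the most abundant of the 8 genes in each library, at 2790, 1935 and 1866 CPM. It was detected in 80.5%, 77.6% and 77.5% of members, and in 2.65 to 3.24% of red blood cell barcodes. *matn4* reached 981, 804 and 769 CPM. *abi3bpb*, which encodes a secreted matrix protein with fibronectin-like repeats, reached 725, 698 and 644 CPM. *TNC*, annotated separately from *tnc*, reached 692, 533 and 510 CPM. The enzyme gene *ca6*, a carbonic anhydrase known as a secreted form in mammals, was at 595, 634 and 638 CPM, with no ordering shared with the tenascins. *dchs1a*, a large Dachsous cadherin of planar cell polarity, was at 407, 263 and 253 CPM. *fstb*, a secreted follistatin that binds activins, was at 147, 177 and 169 CPM in 51.9%, 58.2% and 56.7% of members. *crabp1b*, which encodes a cytoplasmic retinoic acid-binding protein, was the rarest of the 8, at 68.2, 96.7 and 87.7 CPM and in only 16.9%, 23.0% and 19.8% of members. Of the excluding genes, *pcolcea*, an enhancer of procollagen processing, was still present at 111, 137 and 128 CPM. *sost*, a secreted sclerostin, was at 21.8, 14.2 and 16.8 CPM, and 1466 members had none of the 4 excluding genes, 2559 had 1 and 832 had 2.

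The fibroblast label held against its markers. Of 19 fibroblast markers, all were present in the tables and 13 were at least 3-fold higher in members than in all other barcodes, and their summed level was 26998, 21328 and 20388 CPM in members against 8298, 6549 and 6778 CPM in the others. The others include further fibroblast-like cells. *col1a1a*, a collagen I chain, was at 6312, 4509 and 4337 CPM, and *col1a2* at 4458, 3389 and 3152 CPM. *col5a1*, a collagen V chain that helps to set fibril width, was at 3421, 2958 and 2773 CPM and was detected in 99.2%, 99.3% and 98.5% of members. *pdgfra*, the platelet-derived growth factor receptor that marks many mesenchymal cells, was at 362, 345 and 355 CPM, detected in 84.7%, 86.0% and 84.9% of members and in 0.958%, 0.987% and 1.80% of red blood cell barcodes. The marker *mfap5* was near the floor at 5.0, 4.28 and 4.28 CPM. Some markers of narrower mesenchymal types were also above other barcodes. Of 12 fin fold mesenchyme markers, 8 were in at least 5% of members and 4 were at least 3-fold above other barcodes. Their sum was 5293, 5001 and 4968 CPM in members, against 1777, 1512 and 1544 CPM in other barcodes. Most of it came from *and1*, *and2* and *and3*, at means of 874, 3333 and 451 CPM in members. For *and1*, 5% of members held 84.8%, 83.0% and 87.6% of UMIs, and for *and3* 99.1%, 99.7% and 99.7%. The part of mixed barcodes in this sum was not tested. Of 5 sclerotome markers in the tables, 2 were in at least 5% of members and 1 was at least 3-fold above other barcodes, and together they reached 53.1, 42.8 and 45.9 CPM, against 16.9, 15.2 and 15.4 CPM in other barcodes. *pax9*, a sclerotome transcription factor, was at 33.3, 31.7 and 35.6 CPM and *pax1a* at 3.35, 0.931 and 0.965 CPM. Of 5 tendon cell markers, 4 were in at least 5% of members and 3 were at least 3-fold above other barcodes. Their sum was 334, 201 and 236 CPM, against 62.4, 55.8 and 52.9 CPM in other barcodes. The tendon marker *tnmd* was at 247, 130 and 159 CPM in 29.4%, 22.7% and 24.2% of members. Of 8 perivascular markers, 4 were in at least 5% of members and 3 were at least 3-fold above other barcodes, with a sum of 97.1, 86.2 and 86.7 CPM against 48.0, 51.7 and 51.8 CPM, while the marker *ndufa4l2a* was at 0.236, 0 and 0.0603 CPM.

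Outside the rule, the genes that most separated members from all other barcodes encoded matrix proteins, secreted factors and metabolic enzymes. The ratios that follow compare members with barcodes that the same UMIs kept out, so they are descriptions. The other barcodes are of all cell types. This ranking was not made against other fibroblast-like cells alone, so a leading gene need not be particular to members. The 4 named matrix genes were *fmoda* (fibromodulin, a collagen-binding proteoglycan), at a mean of 1150 CPM in members against 216 in other barcodes, *thbs4b* (thrombospondin 4, found at tendon attachments), at 960 against 161, *col11a1b* (a collagen XI chain), at 845 against 136, and *tnc* (tenascin C), at 683 against 110. Signals and their regulators followed. *cxcl12a*, a chemokine that guides migrating cells, averaged 424 CPM against 56.9, but was detected in only 25.8%, 30.1% and 29.5% of members. The 93, 74 and 75 members with the most *cxcl12a* UMIs held 62.9%, 58.3% and 57.2% of them. In members with 7 or 8 genes of the rule *cxcl12a* was at 44.3, 80.4 and 73.3 CPM. Its level in other barcodes was 34.8, 70.5 and 65.3 CPM, so its mean describes a part of the members. *wnt11*, a ligand of noncanonical Wnt signalling, averaged 202 CPM against 27.6, and *c4b*, a complement component, 499 against 77.8. *fap*, a membrane protease known as a marker of activated fibroblasts in mammals, averaged 157 CPM against 21.8. *prrx1b*, a homeobox transcription factor of limb and fin mesenchyme, averaged 181 CPM against 26. The least shared of the leading genes were less well annotated. *si:dkey-202e22.2* was 27.7-fold and *BX248121.1* 15.7-fold higher in members than in other barcodes, from member means of 128 and 70.0 CPM.

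**Figure D2:**
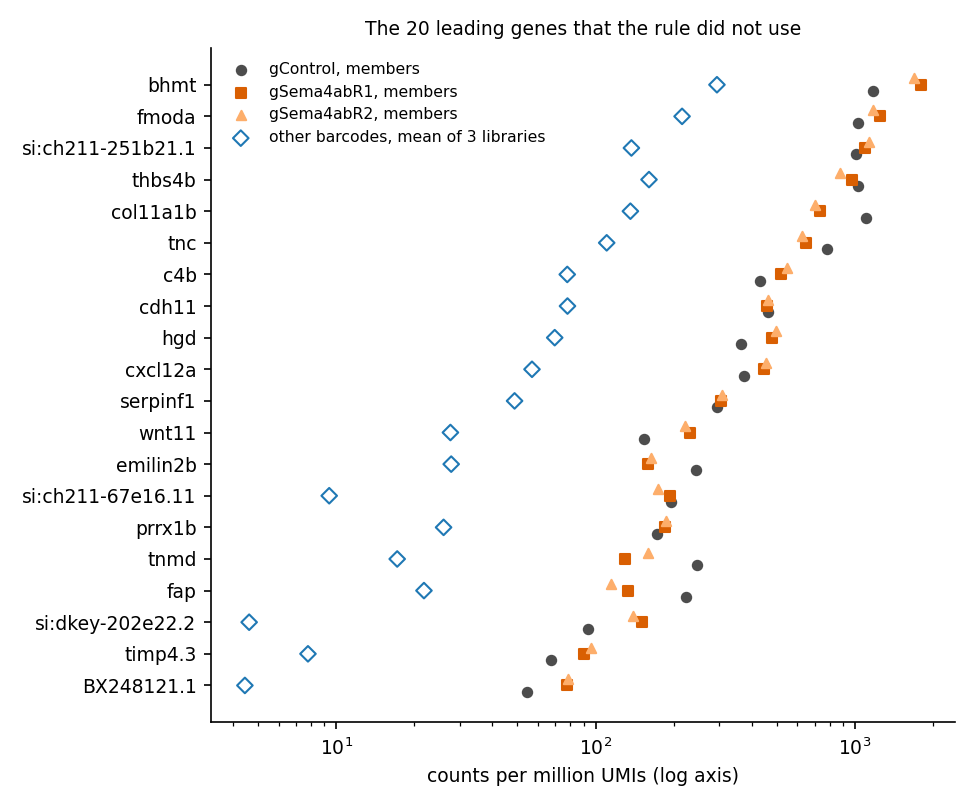
Level in members of each library and mean level in all other barcodes (x axis, CPM, log scale) of the 20 genes with the highest ratio of members to other barcodes outside the rule (y axis). Every gene lay to the right of its value in other barcodes in all 3 libraries, from *fmoda* at 1150 against 216 CPM to *si:dkey-202e22.2* at 128 against 4.62 CPM.

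Enzymes of methionine and tyrosine metabolism, known best from the liver, stood among the abundant transcripts of members. *bhmt*, which remethylates homocysteine with betaine, was at 1169, 1796 and 1693 CPM and was detected in 90.8%, 95.3% and 93.5% of members, against 5.08%, 6.98% and 7.71% of red blood cell barcodes. Tyrosine is made from phenylalanine by the enzyme of *pah*, and those of *hpdb* and *hgd* act at later steps of its breakdown. *hgd* was detected in 69.7%, 76.0% and 75.8% of members at 364, 479 and 496 CPM. *hpdb* was detected in 50.4%, 61.7% and 61.4% of members at 783, 1139 and 1074 CPM. *pah*, at 377, 420 and 394 CPM, came from fewer cells, 23.3%, 27.7% and 30.3% of members, so the 3 genes named here were not equally spread. The 5% of members with the most *pah* UMIs held 57.0%, 48.1% and 51.2% of all its UMIs, whereas the 5% with the most *hgd* UMIs held 29.1%, 24.6% and 24.9%.

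Members also varied in genes that only some of them carried. Members were thinned to 3000 UMIs, and 76, 61 and 93 members below that depth were left out. The variance of UMIs over their mean, taken from the lowest library, had a median of 1.19 over 2596 measured genes. Measured genes averaged 50 CPM or more and had 20 UMIs or more, and for 399 of them this ratio exceeded 2 in every library. The most variable genes included transcripts of other cell types: the globin *hbae3* had a lowest ratio over the libraries of 239, the neutrophil and macrophage lysozyme gene *lyz* 191, and the epidermal keratin *krt4* 32.1. For *lyz*, 5% of members held 95.2%, 96.3% and 97.2% of its UMIs. Actinodin genes, which encode the structural proteins of the fin fold fibres, were also carried unevenly. *and2* was at 3193, 3460 and 3345 CPM and was detected in 40.3%, 46.4% and 46.7% of members, against 5.01%, 8.32% and 8.57% of red blood cell barcodes. *and1* was at 1081, 732 and 809 CPM, with 84.8%, 83.0% and 87.6% of its UMIs in 5% of members. *and3* was detected in 8.82%, 5.91% and 6.24% of members, and 5% of members held 99.1%, 99.7% and 99.7% of its UMIs. *en1b*, an Engrailed transcription factor, followed the same uneven pattern, with 57.2%, 50.3% and 52.7% of its UMIs in 5% of members.

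Few members carried transcripts of dividing cells. A UMI of at least 2 of the 6 genes *mki67*, *top2a*, *aurkb*, *ube2c*, *cdk1* and *ccnb1* was present in 5.48%, 6.31% and 5.84% of members. Thinned to 2000 UMIs, the shares were 1.98% (1.39 to 2.74%), 2.33% (1.62 to 3.24%) and 2.66% (1.90 to 3.62%), in other barcodes 5.08%, 6.01% and 5.23%, and in red blood cell barcodes 0.849%, 0.446% and 0.742%. The intervals of the members overlapped between gControl and both repeats.

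Members with many of the 8 genes differed from members with few. Because both ends were cut on the rule's own UMIs, this is a description of how the members range, and the ends had similar depth. The ends were members with 7 or 8 of the genes (332, 285 and 277 barcodes) and members with 4 (852, 666 and 705 barcodes). In each library 78 of 2587 genes (3.02%) were at least 2-fold higher, and 158 (6.11%) at least 2-fold lower, in members with 7 or 8 genes. Of 13 measured *hox* genes, which specify position along the body axis, 5 were higher, *hoxc6b*, *hoxc10a*, *hoxc11a*, *hoxc11b* and *hoxd11a*, and 0 were lower, whereas the other 8, among them the posterior genes *hoxa10b*, *hoxa11b*, *hoxb9a*, *hoxd9a* and *hoxd10a*, did not pass 2-fold in each library. *hoxc11a* was at 335.6, 322 and 286 CPM in members with 7 or 8 genes and at 56.5, 59.3 and 61.2 CPM in members with 4, with no overlap between the ends. *hoxc10a* was at 355.5, 251 and 269 CPM against 119.8, 102 and 103 CPM. Of 28 measured mesenchymal transcription factors, 7 were higher, *eya1*, *prrx1a*, *prrx1b*, *sall4*, *six1b*, *snai2* and *twist3*, and 4 were lower, *ebf3a*, *en1b*, *meox1* and *tcf15*. *prrx1b* was at 369, 316 and 345.5 CPM against 75.1, 105 and 107 CPM. *meox1*, a somite factor, lay in the opposite order, at 38.9, 41.0 and 47.5 CPM against 304, 247 and 267 CPM. The fin fold mesenchyme markers did not share a direction. Of 6 measured, 1 was higher with 7 or 8 genes, *hoxd11a*, and 3 were lower, *and1*, *and3* and *fgf10a*. *and1* averaged 230 CPM against 1365, and *and3* 71.3 against 772.

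The muscle progenitor factors *pax7a* and *pax7b* were lower together with *meox1* in members with 7 or 8 genes, which are the 3 measured genes of that list. *pax7a* was at 20.2, 32.1 and 39.5 CPM against 275, 206 and 248 CPM in members with 4 genes. Proteoglycan and cartilage matrix genes pointed the same way, with 5 of 6 measured genes of the matrilin and link protein list lower, namely *cilp*, *comp*, *hapln1a*, *hapln1b* and *vcanb*. *comp*, cartilage oligomeric matrix protein, averaged 15.6 CPM against 160, and *cilp*, a matrix protein of cartilage and tendon, 78.7 against 583. The chemokine genes were split. *ccl25b* had a mean level of 711, 1239, 2485 and 4006 CPM with 4, 5, 6 and 7 or 8 genes, and *cxcl12a* lay at 525.5, 612, 217 and 66.0 CPM. Among guidance genes, *ntn1a*, a netrin that attracts or repels axons, averaged 25.8 CPM against 195.5, and *robo3*, a receptor for Slit ligands, 127 against 378.5. Their counterpart *epha7*, an ephrin receptor, averaged 242 against 65.7 CPM.

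Signalling genes differed at the same ends in small numbers. The BMP antagonist *nog1* averaged 188 CPM in members with 7 or 8 genes and 24 CPM in those with 4. The retinoic acid-degrading enzyme gene *cyp26b1* averaged 159 against 43.1 CPM and the retinoic acid-binding *crabp2a* 369 against 176 CPM. *fgfr2*, a fibroblast growth factor receptor, averaged 952 against 332 CPM, and *ptch1*, the Hedgehog receptor that is also a target of the pathway, 31.6 against 80.9 CPM. Of 8 epidermal markers, 5 were lower with 7 or 8 genes, and 25.6%, 32.3% and 29.2% of these members were mixed, against 37.4%, 37.2% and 36.0% of members with 4 genes. The part of mixed barcodes in these differences was not tested.

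**Figure D3:**
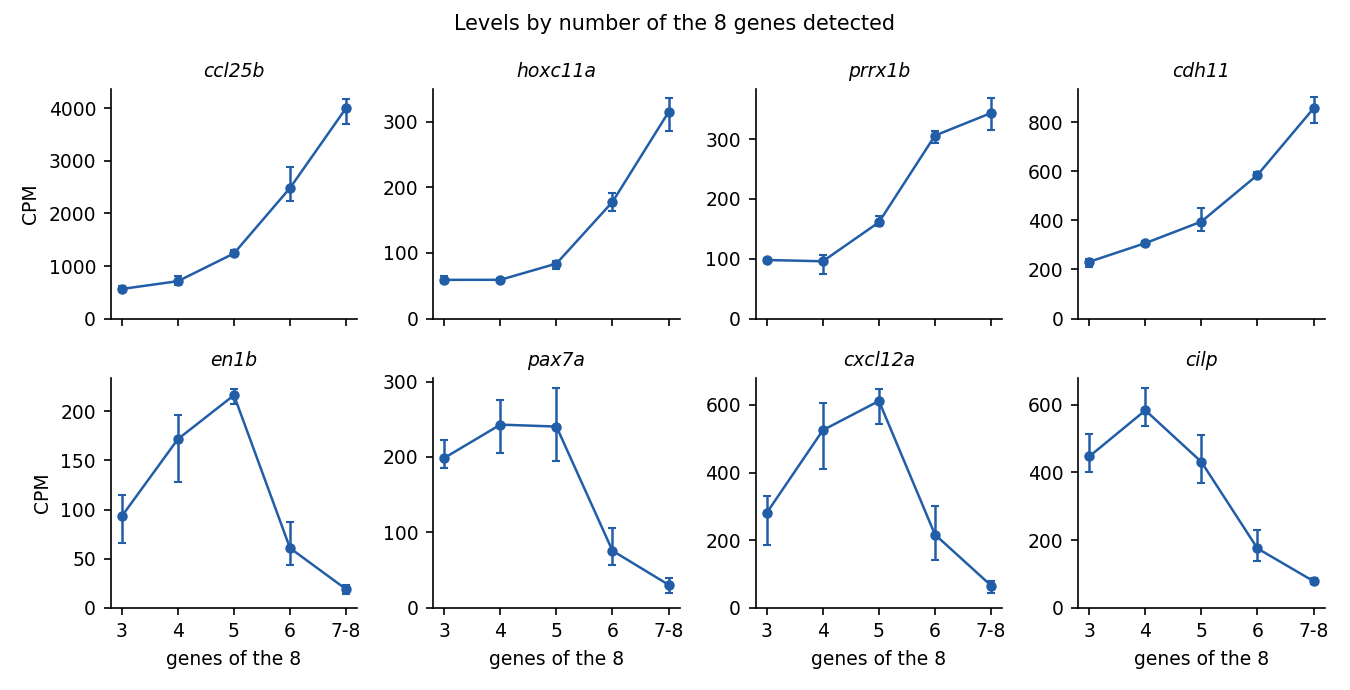
Level of 8 genes (y axes, CPM, linear from 0) by the number of the 8 genes of the rule with a UMI (x axes), from 3 genes, outside the rule, to 7 or 8 genes; points are means of the 3 libraries and bars run from the lowest to the highest library. *ccl25b*, *hoxc11a*, *prrx1b* and *cdh11* are highest with 7 or 8 genes, and *en1b*, *pax7a*, *cxcl12a* and *cilp* are lowest there, with *cxcl12a* at 525.5 CPM with 4 genes and 66.0 CPM with 7 or 8.

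Gene sets that mark other fibroblast-like cells overlapped with the members. Transcripts of all 3 of *cdh11* (a mesenchymal cadherin), *ebf3a* (a transcription factor) and *hapln1a* (a hyaluronan link protein) were present in 19.1%, 14.7% and 13.7% of members, and in 3.12%, 3.21% and 3.59% of other barcodes. All 3 of *fmoda*, *thbs4b* and *cilp* were present in 36.5%, 32.6% and 34.0% of members, and in 5.19%, 6.38% and 5.76% of other barcodes. With 4 of the 8 genes, 45.2%, 41.4% and 45.0% of members carried this trio, and with 7 or 8 genes 14.8%, 10.9% and 11.9%. Members were compared, within each library, with 3 sets of barcodes that were not members: 301 that met the 8-gene part of the rule but had 3 or 4 of *sost*, *tmem88b*, *pcolcea* and *c6* (the *sost* set), 907 with all 3 of *cdh11*, *ebf3a* and *hapln1a* (the *cdh11* set), and 1843 with all 3 of *fmoda*, *thbs4b* and *cilp* (the *fmoda* set), after 315 barcodes that met more than 1 definition were left out. All 4 sets were chosen on UMIs, so the differences are descriptions with no test.

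Against the *sost* set, 107 of 3058 genes (3.5%) were at least 2-fold higher in members in each library and 260 (8.5%) were lower. Of 35 measured mesenchymal transcription factors, 5 were higher in members, *ebf3a*, *zic1*, *meox1*, *tcf15* and *en1b*, and 8 were lower. *ebf3a* is also a gene that defines the *cdh11* set. Barcodes of the *sost* set that met another definition were left out, whereas members with those genes were kept. The ratio of *ebf3a* is thus partly set by this choice. *en1b* averaged 141 CPM in members and 11.4 in the *sost* set, and *pax3a*, a factor of somites and neural crest, 124 and 4.91 CPM. The cartilage matrix gene *comp* averaged 98.6 against 3.68 CPM, and *cilp*, which also defines another of the sets and is subject to the same choice, 407 against 11.2 CPM. Genes lower in members included *podxl*, a sialoprotein of podocytes and mesothelium, at 7.67 against 409 CPM, *myrf*, a membrane-bound transcription factor, at 4.24 against 166 CPM, and *jam2b*, a junctional adhesion molecule, at 2.62 against 130 CPM. Of 11 measured collagen chains listed outside the fibrillar group, 8 were lower in members, among them *col4a5*, *col6a1* and *col12a1a*, and the lower transcription factors included *hand2*, *gata6* and *wt1a* of coelomic and cardiac mesoderm.

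Against the *cdh11* set, 200 of 3587 genes (5.58%) were higher in members and 494 (13.8%) lower. *fgl1*, a secreted fibrinogen-like protein, averaged 345 against 5.09 CPM. Its level was 467 CPM in members with 4 of the 8 genes and 42.2 CPM in those with 7 or 8. The tyrosine pathway genes separated the sets, with *hpdb* at 999 against 44.0 CPM and *pah* at 397 against 19.3 CPM. Genes lower in members included neural transcripts: *otpa*, a homeobox factor of hypothalamic neurons, averaged 3.82 against 105 CPM and *pax2a*, a factor of the midbrain and hindbrain boundary, the ear and the kidney, 5.48 against 119 CPM. The *cdh11* set was shallower than the members, with a median of 6659, 6041 and 6249.5 UMIs, and 43.2%, 47.3% and 45.8% of its barcodes were mixed. Their part in these ratios was not tested. Of 37 measured mesenchymal transcription factors, 10 were higher in members, among them the fin mesenchyme factors *prrx1a*, *prrx1b*, *msx1b* and *msx2b*, and 10 were lower, among them *foxc1a*, *foxd1* and *foxp1b*.

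Against the *fmoda* set, 221 of 2877 genes (7.68%) were higher in members and 63 (2.19%) lower. The actinodins were among the higher genes, with *and3* at 451 against 5.44 CPM, *and1* at 874 against 14.0 CPM and *and2* at 3333 against 104.5 CPM. Most UMIs of *and1* and *and3* lay in 5% of members, so these 2 means describe few members. Levels of the actinodins in unmixed members are not given. *pah* (397 against 12.1 CPM) and *ucp1*, a mitochondrial uncoupling protein gene (373 against 11.8 CPM), were higher in members too. *ucp1* was detected in only 15.6%, 20.3% and 20.4% of members, and 5% of members held 75.3%, 62.0% and 68.7% of its UMIs. For *pah*, 5% of members held 57.0%, 48.1% and 51.2%. Of 20 measured genes on the list of BMP and activin ligands and antagonists, 10 were higher, of which *fstb* is a gene of the rule and the other 9 included *bmp2b*, *bmp4* and *nog1*, and 2 were lower, *fsta* and *nog3*. Somite and muscle progenitor factors were lower in members, namely *myf5* (26.8 against 124 CPM), *uncx4.1* (18 against 78.9 CPM) and *pax7b* (74.6 against 248 CPM). Of 8 epidermal markers, 6 were higher in members than in the *fmoda* set, of which 31.3%, 29.3% and 28.8% were mixed. The part of mixed barcodes in these ratios was not tested.

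Levels were then compared between gSema4ab and gControl members. *sema4ab* itself, the targeted gene, was a minor transcript of members, with 658, 321 and 373 UMIs, or 31.1, 19.9 and 22.5 CPM. It was detected in 22.8%, 16.2% and 17.3% of members, and in 1.03%, 0.705% and 0.576% of red blood cell barcodes. The log2 ratio of gSema4ab to gControl was −0.55 (−0.71 to −0.39), and over all barcodes its level was 50.0, 29.1 and 30.2 CPM. A haCR alters the gene and need not remove its transcript, so this level does not measure how much Sema4ab protein remained.

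Over the 2596 measured genes the median log2 ratio of gSema4ab to gControl in members was −0.07. Its interquartile range was 0.503, against 0.109 for the ratio between both technical repeats, and 5 genes passed 2-fold between the repeats. With the libraries scaled by TMM factors or by DESeq2 size factors instead of total UMIs, the median was 0.12 in each, so ratios are best read against the median of the same scale. In each repeat 16 genes (0.616%) were at least 2-fold higher and 33 (1.27%) at least 2-fold lower than in gControl, so that 32.7% of the called genes were higher. By TMM factors 19 were higher and 17 lower (52.8% higher), and by DESeq2 size factors 20 and 15 (57.1% higher). In all other barcodes, 16 of the 16 higher genes and 32 of the 33 lower genes differed in the same direction, the exception being *lgals1l1* at 0.16. Of these, 7 and 13 passed 2-fold there. The share of all measured genes with the same direction in members and other barcodes is not given, so no result is read from this agreement. Members with 7 or 8 of the 8 genes were also taken alone. Of the 16 and 33 genes, 11 and 12 were called there with the 50 CPM filter. Without that filter, 12 and 20 were past 2-fold in each repeat.

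The genes furthest below gControl included several whose ratio was similar in unmixed members. *ccn1*, a secreted matricellular protein that binds integrins, was at 356, 95.6 and 100 CPM, a log2 ratio of −1.86 (−1.92 to −1.80) in members, −2.10 in unmixed members and −1.45 in other barcodes. *klf9*, a transcription factor that responds to glucocorticoids, was at 145, 51.2 and 51.8 CPM and in 67.9% of gControl but 37.2% of gSema4abR1 members. *hmga2*, a chromatin protein of growing mesenchyme, was at 130, 59.2 and 61.7 CPM. The ratios of *klf9* and *hmga2* were −1.50 and −1.11 in members and −1.45 and −1.25 in unmixed members, whereas in members with 7 or 8 of the 8 genes *hmga2* was at −0.73, short of 2-fold. *col22a1*, a collagen of tissue junctions such as the muscle and tendon border, was at 190, 61.7 and 92.0 CPM, and *fmodb*, a paralog of *fmoda*, at 93.2, 31.8 and 33.7 CPM. In unmixed members *col22a1* was at −1.25 and *fmodb* at −0.93, and with 7 or 8 genes *col22a1* was at −1.64 in gSema4abR1 and −0.91 in gSema4abR2, so its call did not hold there. The surface glycoprotein gene *thy1* was at −1.50 in all members and at −0.42 in unmixed members. The immediate early phosphatase gene *dusp1*, at 107, 51.4 and 53.0 CPM, and *csrnp1b* were lower as well, with −1.07 and −1.03 in unmixed members, and with 7 or 8 genes *dusp1* was at −0.96. In unmixed members of gSema4abR2 *csrnp1b* was at −0.93, so its call did not hold there.

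The other lower genes included epidermal transcripts. All 8 epidermal markers were measured in members, 5 of them were past 2-fold lower, and their median ratio was −1.22. Their summed level was 6954, 3239 and 3340 CPM in members, against 15566, 10619 and 10683 CPM in other barcodes. *krt4* was at 2244, 890 and 1022 CPM in members. It was detected in 45.5%, 54.4% and 53.2% of members, against 28.2%, 45.8% and 39.7% of red blood cell barcodes. The 5% of members with the most *krt4* UMIs held 80.7%, 91.3% and 91.3% of them. Unmixed members were themselves chosen on *krt4*, *krt5*, *krt91* and *icn2*, so their values for these markers depend on that choice. In them the median of the 8 markers was 0.39, and *krt4*, *icn2* and *epcam* were at 0.24, 0.94 and 0.71. *krt5* and *krt91* stayed below gControl there, at −0.24 and −0.55. Adhesion and basement membrane genes of epithelia, *cdh1* (E-cadherin), *cldn1* and *col17a1a*, were in this group, with *cdh1* at −1.15 in members and 1.2 in unmixed members. In the latter *cldn1* was at 1.78 and *col17a1a* at −0.65. With mixed barcodes left out, 12 genes were higher and 20 lower, of which 10 and 9 were also called over all members. Summed markers of macrophages were 1193, 653 and 692 CPM in members, those of red blood cells 5233, 5315 and 5928 CPM and those of neurons 102, 174 and 146 CPM.

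Higher genes in gSema4ab members were fewer and spanned several functions. *timp2b*, an inhibitor of matrix metalloproteinases, was at 285, 636 and 682 CPM, a log2 ratio of 1.21 (1.17 to 1.25), with 1.04 in unmixed members and 0.67 in other barcodes. In unmixed members of gSema4abR2 *timp2b* was at 0.96, so its call did not hold there. Its paralog *timp2a* stood at 153, 154 and 155 CPM. *cpn1*, a carboxypeptidase, was at 113, 240 and 268 CPM, a ratio of 1.17 in members, 1.22 in other barcodes and 0.96 with 7 or 8 genes. *C25H11orf96* was at 111, 227 and 226 CPM, with a ratio of 1.03 in members and in other barcodes, but 1.60 in members with 4 of the 8 genes and 0.32 in those with 7 or 8, where it was not called. *apoc1*, an apolipoprotein gene, had the highest ratio of the 16, 1.94, but was detected in 3.06% and 4.50% of members in gControl and gSema4abR1. The ribosomal protein genes *rps29*, *rpl38* and *rpl29*, which have short transcripts, were at 1.15, 1.14 and 1.09 in members and at 1.06, 1.09 and 0.99 in other barcodes. The small nuclear RNA gene *rn7sk* and the membrane protein gene *ost4* were at 1.54 and 1.39 in members, and at 1.40 and 1.26 in other barcodes. A mitochondrial feature without a gene name was at 2983, 918 and 903 CPM, with −1.71 in members and −1.70 in other barcodes. Why these ratios were present in all barcodes was not tested.

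**Figure D4:**
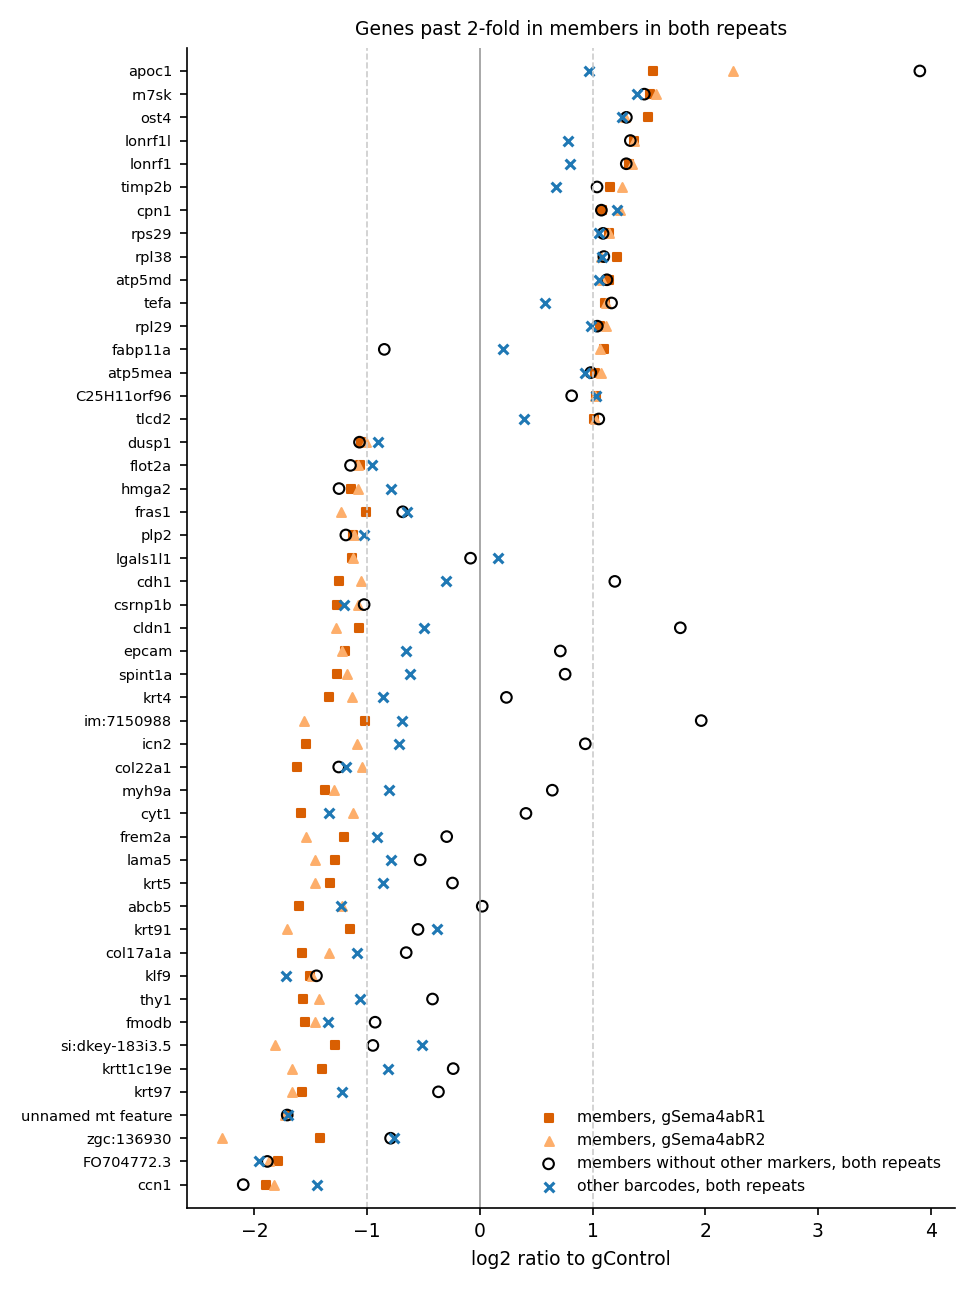
Log2 ratio of gSema4ab to gControl (x axis) of the genes past 2-fold in both repeats (y axis), for each technical repeat in members, for unmixed members, and for all other barcodes. Unmixed members can still hold transcripts of other cell types below the limits that define mixed barcodes. *ccn1* lies at −1.86 in members and −2.10 without mixed barcodes, *timp2b* at 1.21 and 1.04, and some epidermal genes change sign, such as *cdh1* from −1.15 to 1.2.

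The TGF-beta ligand genes of members did not share a direction. *tgfb3* was at 41.9, 25.9 and 26.3 CPM and was detected in 29.0%, 18.6% and 19.6% of members, against 0.295%, 0.211% and 0.432% of red blood cell barcodes. Its log2 ratio was −0.68 (−0.82 to −0.55), with −0.76 in unmixed members, −0.49 by TMM factors and −0.36 in other barcodes. The size depended on which members were taken: it was −0.80 (−1.0 to −0.60) in members with 4 of the 8 genes and −0.16 (−0.51 to 0.18) in those with 7 or 8. *tgfb1a* was at 72.7, 92.0 and 92.9 CPM, a ratio of 0.35 (0.26 to 0.44), in 44.0%, 47.5% and 49.7% of members. *tgfb2* was at 25.9, 24.1 and 20.1 CPM, a ratio of −0.23 (−0.40 to −0.07). *tgfb1b* was near the floor at 2.45, 3.97 and 2.83 CPM. None of these ligands passed 2-fold in both repeats. Of the 9 measured genes of the TGF-beta list, *ccn1* was past 2-fold lower and 0 were higher, and the list's median was −0.25, or −0.06 by TMM factors.

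Members carried transcripts of both ligands and receptors of the semaphorin system, whose list summed to 2080, 1628 and 1631 CPM in members and 1448, 1148 and 1187 CPM in other barcodes. Among the ligands, *sema3e* was at 137, 129 and 123 CPM, and among the receptors *plxna1a*, a class A plexin, was at 209.8, 195.5 and 195.4 CPM. The plexin B genes encode the receptors of class 4 semaphorins. *plxnb2a*, with its 2 identifiers summed, was the most abundant of them, at 126, 89.2 and 87.9 CPM in 59.6%, 47.8% and 48.6% of members, against 0.958%, 1.27% and 1.15% of red blood cell barcodes, and had a ratio of −0.51 (−0.59 to −0.44). *plxnb1a* was at 23.1, 18.7 and 18.2 CPM and *plxnb1b* at 26.3, 20.04 and 21.4 CPM, with ratios of −0.32 and −0.34. *plxnb2b*, at 10.9, 6.14 and 5.85 CPM, had a ratio of −0.86 (−1.15 to −0.59). Of 13 measured genes of the semaphorin list 0 passed 2-fold in either direction, with a median of −0.35, or −0.16 by TMM factors.

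Several lists of matrix genes had medians below that of all genes, while 12 collagen processing genes were at 0.01 and 6 metalloproteinases and inhibitors at −0.09. The 11 measured non-fibrillar collagens had a median log2 ratio of −0.73, the 10 fibrillar collagens −0.50, the 8 elastic fibre genes −0.49 and the 8 tenascin, fibronectin and periostin genes −0.35, and 0 of these genes passed 2-fold in both repeats. By TMM factors the medians were −0.54, −0.30, −0.30 and −0.16. The tenascin list holds *tnn* and *TNC*, the elastic fibre list *abi3bpb* and the Fat and Dachsous list *dchs1a*, genes that chose the members, and without them the medians were −0.30 over 6 genes, −0.53 over 7 and −0.56 over 5. *col12a1b*, a collagen XII chain, was at 1349, 834 and 848 CPM, a ratio of −0.68 (−0.71 to −0.66) and −0.62 in other barcodes. *col12a1a* was at 1024, 771 and 734 CPM, a ratio of −0.44. *fap* was at 222, 133 and 114 CPM, a ratio of −0.84 (−0.91 to −0.79). The 6 Fat and Dachsous cadherins had a median of −0.57, the 15 AP-1 and immediate early genes −0.53 with *dusp1* past 2-fold, and the 16 integrin and adhesion genes −0.45 with *thy1* past 2-fold. *pdgfra* was at −0.05 (−0.09 to −0.01), and *wnt11* at 0.56, from 154 to 232 and 221 CPM. Of the metabolic genes, *bhmt*, *hpdb* and *hgd* were above gControl without passing 2-fold, with ratios of 0.58, 0.50 and 0.42. The ratio of *hpdb* was 0.77 in members with 4 of the 8 genes and 0.26 in those with 7 or 8. *pah* had no common direction, at 298, 414 and 393 CPM with 4 genes and 404, 303 and 274 CPM with 7 or 8. Over the 30 lists, 22 medians were below 0, and 14 by DESeq2 size factors, so the sign of a list near 0 depends on the scale: the 28 mesenchymal transcription factors were at −0.13, or 0.07 by TMM factors, and the 18 BMP and activin genes at −0.05, or 0.14. The 19 heat shock and chaperone genes were at 0.17, or 0.36.

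**Figure D5:**
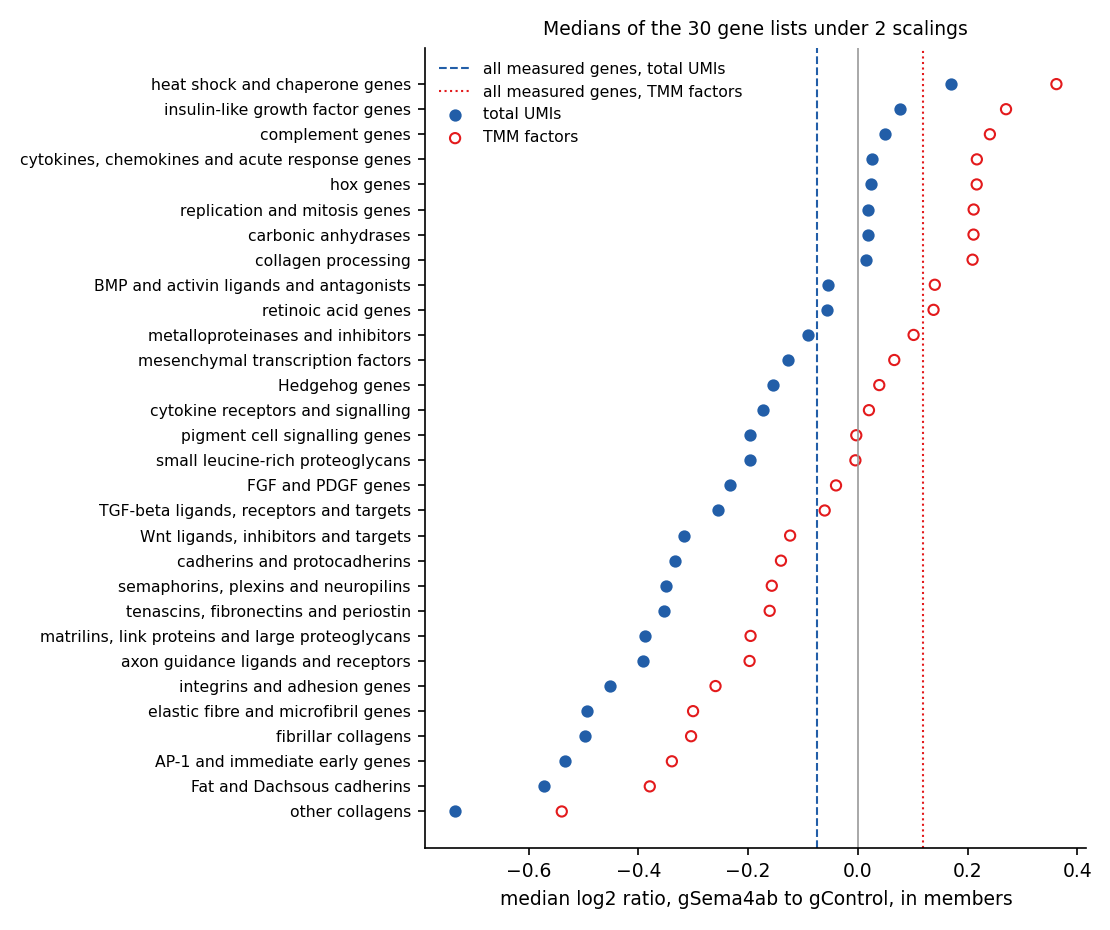
Median log2 ratio of gSema4ab to gControl in members (x axis) of the 30 gene lists (y axis), with total UMIs (filled) or TMM factors (open) as the scale, and the median of all measured genes on each scale as a dashed or dotted line. The non-fibrillar collagens lie at −0.73 and the heat shock genes at 0.17 with total UMIs, and at −0.54 and 0.36 with TMM factors.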

How the data were processed

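The deposited matrices hold counts of UMIs per gene and barcode, which the authors made with Cell Ranger 7.1.0 from 3′ droplet libraries against GRCz11, with no normalization for depth. Such counts depend on how well the 3′ ends of genes are annotated. The UMIs of members were summed per gene and library. Ratios of CPM had 0.5 UMIs added. Calls between conditions and medians over genes covered genes that averaged 50 CPM or more and had 20 UMIs or more. A call needed a log2 ratio past 1 in each repeat. Ratios of *sema4ab*, the TGF-beta ligand genes and the plexin B genes are given at any level. edgeR 4.0.16 (TMM) and DESeq2 1.42.0 gave scaling factors only, and no model was fitted. Other steps ran in Python 3.11.15 with pandas 2.3.3, scipy 1.17.1, numpy 2.4.6 and matplotlib 3.10.9. The 2-fold call and the interval of a ratio were tested on simulated gene totals whose only spread was counting error. Variation between members was not simulated.

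The members, the gene lists and the rule for named genes were chosen with earlier results of these data known. The rule named its own genes, the 20 leading and 10 most abundant genes, the 8 highest and 8 lowest against each comparison set, the 12 highest and 12 lowest called genes, the 12 most variable, and up to 6 abundant genes and any called gene per list. At any level it also named *sema4ab*, the TGF-beta ligand genes, the plexin B genes, *pdgfra*, *pdgfrb*, *col12a1a* and *col12a1b*. Genes named otherwise, such as those that differed between members with 7 or 8 and with 4 genes, were chosen after their values were seen. Alternatives covered scaling, filters, mixed barcodes, the number of genes required, thinning and each repeat.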

Additional observations from a re-analysis of the deposited data

How the results depend on the processing

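The share of members is set by the rule's own UMIs and no difference between conditions is read from it; as an account of the settings, its log2 ratio, gSema4ab to gControl, was −0.28, −0.16 with 3 or more genes required and −0.42 with mixed barcodes left out. Of genes past 2-fold in members, 33 were lower, against 17 with TMM factors, 15 with DESeq2 size factors and 20 with mixed barcodes left out. With no CPM filter 671 genes were higher and 2560 lower of 26625, and with at least 200 CPM 5 and 7 of 557. Leaving out gSema4ab replicate 1 or replicate 2 gave 45 to 53 lower and 17 to 18 higher genes. A call needs 2-fold in each repeat used, so leaving out a repeat can only add genes, and nothing is read from this rise. Of 30 list medians 22 were below 0, and 14 by DESeq2 size factors. *sema4ab* was at −0.35 and *tgfb3* at −0.49 with TMM factors, and *tgfb3* at −0.16 in members with 7 or 8 genes. Called genes that reversed sign with mixed barcodes left out, which removes barcodes on *krt4*, *krt5*, *krt91* and *icn2*, were *abcb5* (0.0213), *cdh1* (1.2), *cldn1* (1.78), *cyt1* (0.41), *epcam* (0.71), *fabp11a* (−0.85), *icn2* (0.94), a gene with only a clone name (1.96), *krt4* (0.24), *myh9a* (0.64) and *spint1a* (0.76). In members with 7 or 8 genes, *abcb5* (0.62), *icn2* (1.23) and the same clone-named gene (0.12) reversed, where the cause was not tested. Of 289 named genes, 251 kept their sign with TMM factors and 245 with mixed barcodes left out. Members with 7 or 8 genes (19 higher, 38 lower, of which 11 and 12, counting genes that also reached the CPM filter, were called over all members) and members with at most 20000 UMIs (14 and 24) were alternatives chosen after seeing the data. No paired analysis was possible because gControl is 1 library and both gSema4ab libraries repeat 1 sample. No replicate of either condition exists here, and cells of 50 pooled larvae cannot stand for animals, so the spread between clutches is unknown.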
